A study of Mus musculus with 18 samples.

Results

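The cluster of miR-143 and miR-145a is represented in these small RNA libraries by 4 mature miRNAs, chosen by name among the 1966 miRNAs measured: mmu-miR-143-3p, mmu-miR-143-5p, mmu-miR-145a-5p and mmu-miR-145a-3p. All 4 passed the expression filter that 726 miRNAs passed, which asked for 1 CPM or more (reads scaled to the library total) in 3 or more libraries. The libraries came from 3 wildtype adrenal glands (AG, labelled CRE -), 7 tumors of mice with an IGF2BP1 transgene (TI) and 8 tumors of mice with IGF2BP1 and MYCN transgenes (TIM, labelled IMP1/MYCN, CRE +). Of the 7 TI tumors, 6 were labelled IGF2BP1 +/+, CRE + and 1 was labelled IGF2BP1 +/-, CRE +. The transgenes sat in the Rosa26 locus behind a stop cassette, and a Cre recombinase under the Dbh promoter removed that cassette in sympathetic and adrenal medullary cells. IGF2BP1, also named IMP1, was expressed without its own 3′UTR, and the mice were on a C57Bl6/N background. In TIM mice IGF2BP1 occupied 1 Rosa26 allele and MYCN the other, whereas IGF2BP1 +/+ mice carried IGF2BP1 on both alleles. AG samples were labelled as adrenal gland, an organ of steroid-producing cortex and chromaffin medulla, whereas most tumor samples were labelled only as tumor, with 1 adrenal tumor in TI, and 2 adrenal tumors and 1 spine tumor in TIM. Tumor mice were culled on reaching termination criteria, at times recorded for each mouse that cannot be assigned to columns and were not used here. The paper reports a shorter median survival for IGF2BP1/MYCN mice than for homozygous IGF2BP1 mice. TIM and TI thus differ in IGF2BP1 copies and in typical age at culling as well as in MYCN, and these cannot be told apart. The data columns name the group but not the mouse, so that libraries are numbered here in column order.

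miR-143 and miR-145 are excised from hairpins of a shared precursor transcript, and both are best known from smooth muscle, where serum response factor and myocardin drive the locus and the miRNAs favour the contractile over the proliferating state. They are made mainly in mesenchymal cells, meaning smooth muscle, pericytes and fibroblasts, and tissue levels of both fall in many carcinomas. Each hairpin yields a 5p and a 3p strand, of which miR-143-3p and miR-145a-5p are the arms usually loaded as guides, whereas miR-143-5p and miR-145a-3p are the partner arms. In the GRCm38.p6 RefSeq annotation, which is the mm10 build of the alignments, the Mir145a hairpin lies on chromosome 18 from 61647825 to 61647894 and the Mir143 hairpin from 61649196 to 61649258. Both hairpins, separated by 1301 bases, lie within the annotated span of Carmn (61645878 to 61665538), a long non-coding RNA gene that is also called Mir143hg. The related Mir145b hairpin is on the same chromosome from 69022199 to 69022273. It gave 0 to 12 reads per library, did not pass the filter and was not tested.

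Libraries held 21644743 to 23332704 reads in AG, 11802837 to 21268124 in TI and 11641696 to 23435621 in TIM, of which the members received between 132 (miR-143-5p in a TI tumor) and 4510638 (miR-143-3p in an AG sample). TI library 5 stood apart from the other 6 TI libraries in miRNAs outside the cluster. It held miR-467a-5p at 213 CPM against 0.804 to 11.03 CPM in the others, and miR-196a-5p at 17.7 CPM against 184 to 417 CPM. miR-148a-3p took 2.29% of its reads and 30.1% to 61.9% of the reads of the other TI libraries. Results for TI are therefore given with and without this library. In TIM, library 1 held miR-1a-3p, the miRNA of skeletal and heart muscle, at 22257 CPM against 74.5 to 163 CPM in the other 7.

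miR-143-3p was the most abundant member by far and one of the most abundant miRNAs of the adrenal gland. It was measured at 120747, 174319 and 208704 CPM in AG, where it ranked 1 or 2 among all miRNAs and made up 16.0% ± 4.34 of the reads (SD, n = 3). In TI it ranged from 15743 to 170636 CPM with a median of 67858 CPM. In TIM it ranged from 15989 to 100922 CPM with a median of 47991 CPM. All 8 TIM libraries and 6 of 7 TI libraries were below every AG library, and TI library 5 at 170636 CPM was inside the AG range. Even so, miR-143-3p remained among the 12 most abundant miRNAs of every tumor and reached rank 2 in both tumor groups. Its share of reads was 5.90% ± 4.62 in TI (SD, n = 7) and 5.58% ± 2.52 in TIM (SD, n = 8).

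On the log2(CPM + 1) scale, miR-143-3p was lower in TI than in AG by 3.05-fold (log2 difference -1.61, SE 0.65, 95% interval -2.96 to -0.25, limma adjusted p = 0.042). In TIM it was lower than in AG by 3.88-fold (log2 difference -1.96, SE 0.63, adjusted p = 0.016 in limma). The TI call was close to the threshold. It was lost in edgeR (adjusted p = 0.058) and DESeq2 (adjusted p = 0.053), and in limma when TI library 1, 2 or 6 or any of the 3 AG libraries was left out (adjusted p between 0.059 and 0.14). Without TI library 5 the log2 difference was -1.89 (limma adjusted p = 0.013).

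miR-143-5p, the partner arm, was present at a small fraction of these levels. AG libraries held 49.1, 66.3 and 83.8 CPM. TI libraries ranged from 11.98 to 118 CPM with a median of 38.2 CPM, and TIM libraries from 9.39 to 38.6 CPM with a median of 21.1 CPM. Every TIM library was below every AG library, whereas in TI 5 libraries were below the AG range, library 2 was inside it and library 5 was above it. miR-143-5p was lower in TIM than in AG by a log2 difference of -1.66 (SE 0.55, limma adjusted p = 0.018). Against AG, the TI difference of -0.85 did not pass the test (SE 0.56, 95% interval -2.03 to 0.32, limma adjusted p = 0.21). Without TI library 5 it was -1.14 (limma adjusted p = 0.058).

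miR-145a-5p, the guide arm of the neighbouring hairpin, was measured at 451, 407 and 311 CPM in AG. In TI it ranged from 34.4 to 495 CPM with a median of 154 CPM. In TIM it ranged from 26.0 to 312 CPM with a median of 88.8 CPM. Of the TI libraries 6 were below the AG range and library 5 was above it. Of the TIM libraries 7 were below the AG range, and library 2 at 312 CPM reached the lowest AG value. The TIM libraries were lower than AG by 4.44-fold (log2 difference -2.15, SE 0.71, limma adjusted p = 0.017). The TI difference of -1.51 did not pass the test (SE 0.72, 95% interval -3.02 to -0.0028, limma adjusted p = 0.080), and without TI library 5 it was -1.82 and passed it (limma adjusted p = 0.028).

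miR-145a-3p showed the clearest separation of the 4 members. The AG libraries were tightly grouped at 341, 361 and 366 CPM (356 ± 13.4, SD, n = 3). TI libraries ranged from 20.4 to 209 CPM with a median of 82.3 CPM, and TIM libraries from 21.6 to 139 CPM with a median of 71.7 CPM. No tumor library reached the lowest AG value, and this held for TI library 5, which at 209 CPM was the highest tumor library. miR-145a-3p was lower than in AG by 5.37-fold in TI (log2 difference -2.43, SE 0.66, limma adjusted p = 0.0050) and by 5.66-fold in TIM (log2 difference -2.50, SE 0.65, limma adjusted p = 0.0040). Both calls were kept in each of the 24 alternatives run for TI and the 22 run for TIM, including every fit that left out 1 library.

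**Figure D1:**
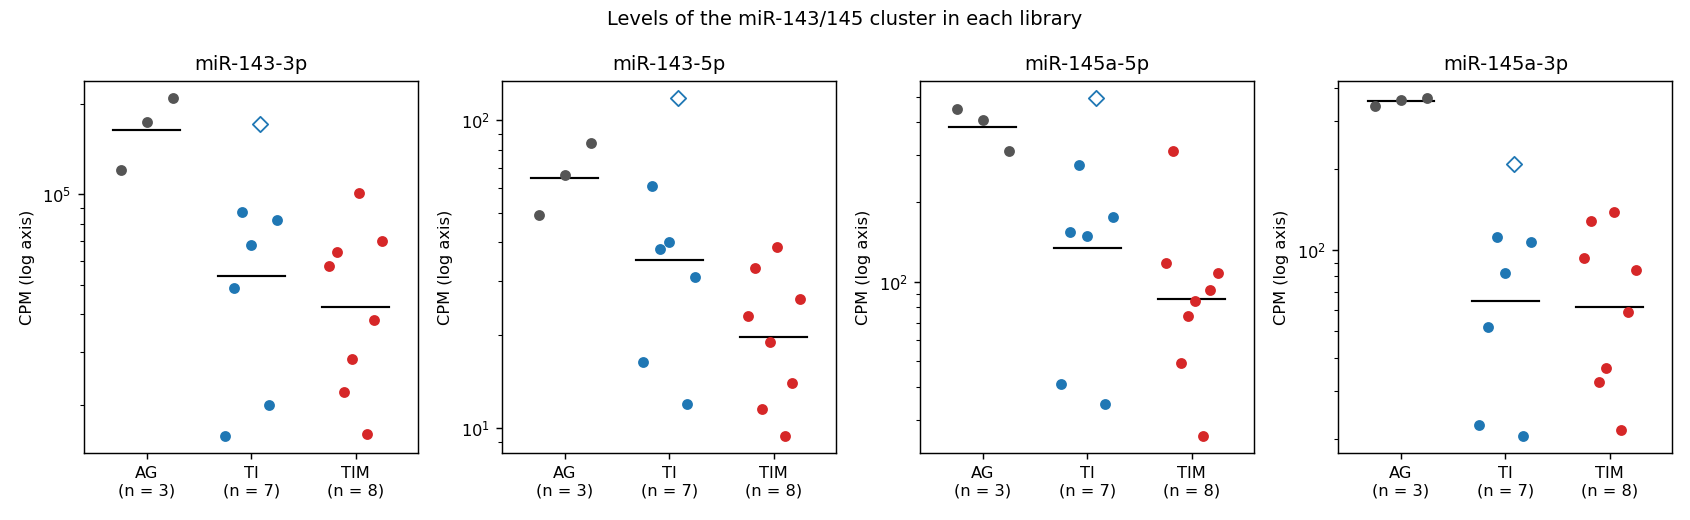
CPM of each member (log axis, scaled separately per panel) in the 3 AG, 7 TI and 8 TIM libraries; points are libraries, black lines are geometric means, and the open diamond is TI library 5. Of the 4 members only miR-145a-3p has all tumor libraries below all AG libraries, and TI library 5 is the highest TI library in every panel.

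Counted over the cluster, 2 of 4 members were lower in TI than in AG by limma, where 29.3% of all 726 tested miRNAs were lower, and 4 of 4 were lower in TIM, where 25.9% of all were. Without TI library 5 the TI count was 3 of 4, beside 30.7% of all miRNAs. By edgeR on the recovered reads it was 1 of 4 in TI, beside 25.3% of all, and 4 of 4 in TIM, beside 22.2% of all. Every TI library was below every AG library for 1 of 4 members (miR-145a-3p) and for 24.4% of all tested miRNAs. Every TIM library was below every AG library for 3 of 4 members, all but miR-145a-5p, and for 22.0% of all. The TI count thus changed with the tool, and by DESeq2 it was also 1 of 4, beside 26.9% of all. It gives no clear excess over all miRNAs. The share of members called in TIM was above that of all miRNAs by both limma and edgeR. The 4 called in TIM fell to 1 without AG library 2 (miR-145a-3p) and to 2 without AG library 3 (miR-145a-3p and miR-145a-5p), with 2 AG libraries then left. Both comparisons use the same 3 AG libraries, and the 4 members are strands of neighbouring hairpins and no independent measurements. The samples are bulk tissue, in which fewer cells that make these miRNAs and less miRNA per cell cannot be told apart.

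The cluster's median log2 difference was -1.56 in TI and -2.05 in TIM, whereas the median over all 726 tested miRNAs was -0.01 in TI and 0.18 in TIM. miR-148a-3p, which took 4.19% to 6.94% of the reads in AG and up to 61.9% in the tumors, enters the totals on which CPM rest. With it left out of the totals, and with no TMM factor (the scaling of the deposited values), the median of all miRNAs rose by 0.35 in TI and by 0.39 in TIM. Dropping the TMM factor alone moved this median by -0.14 in TI and by 0.23 in TIM. Relative to the median on totals without miR-148a-3p, miR-143-3p was at -1.42 in TI and -1.93 in TIM, and miR-145a-3p was at -2.25 and -2.48. miR-143-3p itself then missed the threshold in TI (log2 difference -1.08, limma adjusted p = 0.071), so that 1 of 4 members was called there, beside 20.7% of all miRNAs, whereas 4 of 4 were called in TIM, beside 16.0% of all.

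By limma no member differed between TIM and TI tumors beyond the spread between libraries. The log2 difference of TIM against TI was -0.35 for miR-143-3p (95% interval -1.36 to 0.67, limma adjusted p = 0.74) and -0.64 for miR-145a-5p (95% interval -1.77 to 0.49, limma adjusted p = 0.51). It was -0.81 for miR-143-5p (95% interval -1.69 to 0.07, limma adjusted p = 0.26) and -0.07 for miR-145a-3p (95% interval -1.11 to 0.96, limma adjusted p = 0.96). By limma 0 of 4 members were called in either direction, with 0 of 4 at an unadjusted p under 0.05, where 5.23% of all miRNAs were called. edgeR also called 0 of 4. DESeq2 called 1 of 4, miR-143-5p with a log2 difference of -1.12 (DESeq2 adjusted p = 0.044), and 16.9% of all miRNAs. These intervals include differences of more than 1 log2 unit in the direction of lower TIM levels for all 4 members. The direction for miR-143-3p and miR-145a-3p was not stable, since on CPM without the TMM factor TIM was higher by 0.21 and 0.47, while the median of all miRNAs moved by 0.43. Without TI library 5 the difference of miR-145a-3p was 0.20 (limma adjusted p = 0.85).

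**Figure D2:**
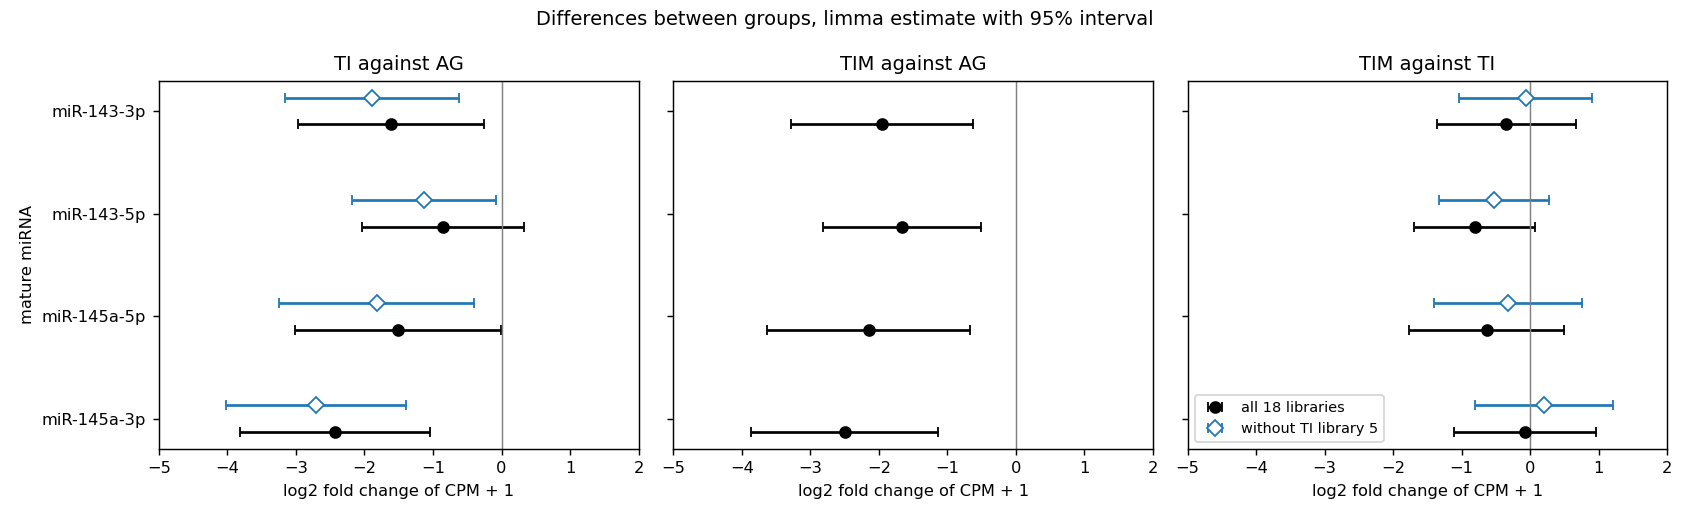
Log2 difference of CPM + 1 for each member in the 3 comparisons, as limma estimates (black circles, all 18 libraries) with 95% intervals; open diamonds are the estimates without TI library 5, drawn where the comparison uses TI. The TIM against AG intervals lie below 0 for all 4 members, whereas the TIM against TI intervals all include 0.

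Levels varied widely among the tumors of each group, of which TI held 1 IGF2BP1 +/- tumor that cannot be assigned to a column. The highest TI library exceeded the lowest by 10.8-fold for miR-143-3p and 14.4-fold for miR-145a-5p, and in TIM the range was 6.31-fold for miR-143-3p and 6.44-fold for miR-145a-3p. Among the 3 AG libraries the range was 1.73-fold for miR-143-3p and 1.07-fold for miR-145a-3p. The members mostly put the tumors in the same order. In CPM, TI library 5 was the highest TI library for each of the 4, and TI libraries 1 and 6 were the lowest pair for each. TIM libraries 6 and 3 were the lowest and second lowest for each in CPM. Their TMM factors, by which CPM are divided, were also the highest of TIM (1.85 and 1.80). As a share of reads, TIM library 7 was below library 3 for each member. At the top of TIM the order in CPM differed, with library 5 the highest for miR-143-3p, miR-143-5p and miR-145a-3p but library 2 the highest for miR-145a-5p.

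Across the 18 libraries, log2(CPM + 1) of miR-143-3p correlated with that of miR-145a-3p at r = 0.97, and with miR-145a-5p and miR-143-5p at r = 0.90 each. Taken as deviations from the group means, so that differences between groups do not enter, the coefficients were 0.98, 0.85 and 0.89. Without TI library 5 they were 0.97, 0.82 and 0.86. These are descriptions, as the points share library depth, scaling factor and precursor transcript. By these coefficients the partner arm miR-145a-3p lay nearer to miR-143-3p than the guide arm miR-145a-5p did, both with and without that library.

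The ratio of the arms within a library does not depend on the library total. miR-143-3p exceeded miR-143-5p by 2462, 2631 and 2491-fold in AG, by 805 to 2660-fold in TI (median 1672) and by 1494 to 2726-fold in TIM (median 2224). The AG ratios lay close together, and 6 of 7 TI ratios and 4 of 8 TIM ratios were below all of them. For miR-145a the guide and partner arms were near parity, with miR-145a-5p over miR-145a-3p at 1.32, 1.13 and 0.849 in AG. This ratio was 1.63 to 2.96 in TI (median 1.83) and 0.609 to 2.43 in TIM (median 1.40). All 7 TI ratios were above all 3 AG ratios, whereas the TIM ratios overlapped both groups.

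On the log2 scale the ratio of miR-145a-5p to miR-145a-3p was higher in TI than in AG by 0.92 (two-sided exact permutation p = 0.0083, the smallest that 120 arrangements allow). Adjusted over the 9 ratio comparisons the p was 0.075, so that the difference did not pass the threshold. It was 0.88 without TI library 5. TIM ratios were lower than TI ratios by a log2 difference of -0.56 (two-sided exact permutation p = 0.035, adjusted p = 0.16). Of 15 repeats that left out 1 library, only 1 passed the threshold. It was without TIM library 2, which held the highest TIM ratio, with a difference of -0.68 (exact permutation, adjusted p = 0.039). Without TIM library 5, which held the lowest, the difference was -0.40 (exact permutation, adjusted p = 0.19). TIM against AG gave 0.35 (exact permutation p = 0.38, adjusted p = 0.49). For miR-143 the arm ratio differed by -0.75 between TI and AG (exact permutation p = 0.058, adjusted p = 0.175) and by -0.29 between TIM and AG (exact permutation p = 0.22, adjusted p = 0.40). Between TIM and TI it differed by 0.46 (exact permutation p = 0.099, adjusted p = 0.22).

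The balance between the hairpins, given as miR-143-3p over miR-145a-5p, was 268, 428 and 672 in AG, 318 to 582 in TI and 207 to 1192 in TIM. The ranges of the 3 groups overlapped. Against AG the log2 difference was -0.10 in TI (exact permutation p = 0.78, adjusted p = 0.78) and 0.19 in TIM (exact permutation p = 0.69, adjusted p = 0.78), and between TIM and TI it was 0.29 (exact permutation p = 0.36, adjusted p = 0.49). The first changed sign without AG library 3 (0.23) and the second without AG library 1 (-0.14). A read ratio also carries the ligation bias of the library preparation for each strand, and so it is no ratio of molecules.

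**Figure D3:**
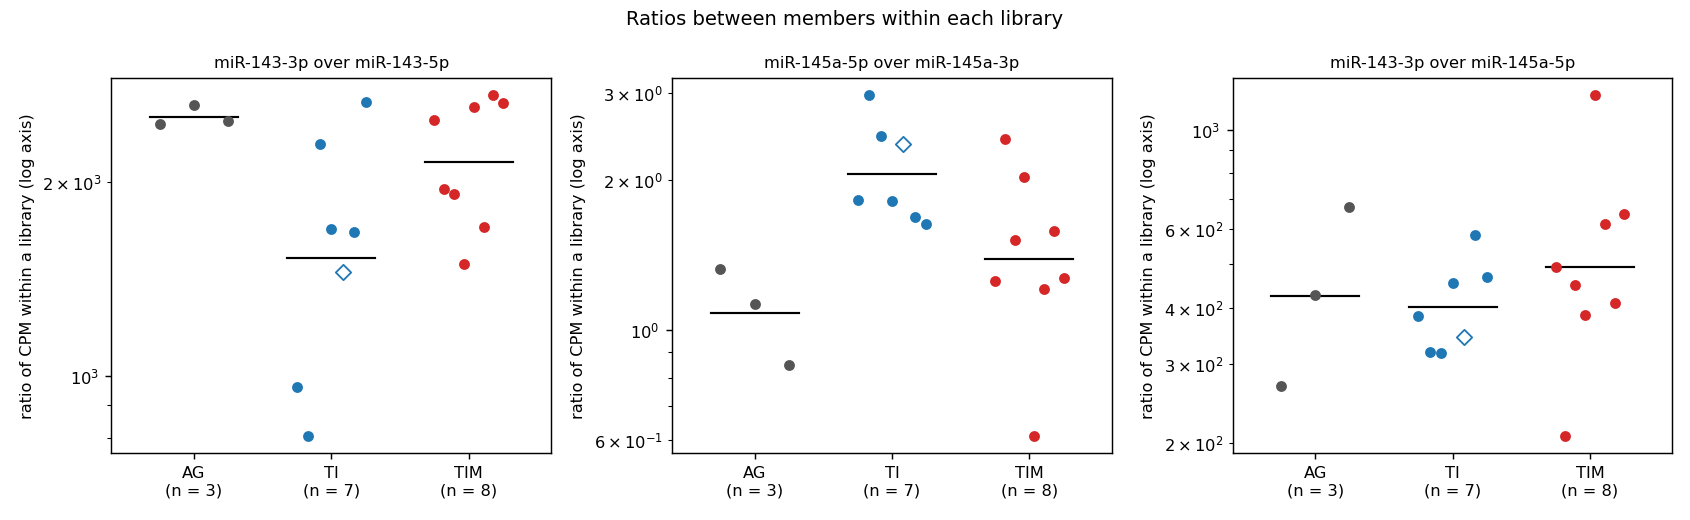
Ratios of CPM within each library (log axes) for the arms of miR-143, the arms of miR-145a and the guide arms of both; points are libraries, lines are geometric means, and the open diamond is TI library 5. The 7 TI ratios of miR-145a-5p to miR-145a-3p lie above the 3 AG ratios, while TIM ratios span both groups.

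Other miRNAs were set beside the cluster in lists by cell type. The list for smooth muscle growth names a process, and its miRNAs are not markers of that cell type. These growth-related miRNAs (miR-21a, miR-221, miR-222, miR-24 and miR-26a, 7 strands) were lower than AG in 6 of 7 cases in TI (29.3% of all tested miRNAs) and in 5 of 7 in TIM (25.9% of all), with medians of -2.78 and -2.56. Among them miR-26a-5p fell from 41568 ± 6197 CPM (SD, n = 3) to 9459 ± 4849 CPM in TI (n = 7; log2 difference -2.26) and 9494 ± 5287 CPM in TIM (n = 8; log2 difference -2.32). miR-21a-5p, at 83004 CPM in AG, 55328 CPM in TI and 47430 CPM in TIM, did not pass the test in either comparison. Of the miRNAs of skeletal and heart muscle, some of which share regulation by serum response factor with the cluster, 4 of 7 were tested. By limma 0 of 4 were called in either comparison with AG (medians -0.28 in TI and 0.56 in TIM), with 0 at an unadjusted p under 0.05 and 0 by edgeR or DESeq2. miR-1a-3p was at 191 ± 16.1 CPM in AG, 137 ± 108 CPM in TI and 2895 ± 7823 CPM in TIM, the last set by library 1. miR-206-3p was at 0.602 CPM in AG, 1.54 CPM in TI and 57.4 CPM in TIM on average, with 455 CPM in the same library. That library, at 57721 CPM of miR-143-3p, lay in the middle of its group, and without it the TIM difference of miR-143-3p from AG was -2.02 (limma adjusted p = 0.018).

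miRNAs of fibroblasts and stroma (miR-199a, miR-199b and miR-214, 6 strands) were lower in 6 of 6 cases in TI and 4 of 6 in TIM, beside the same 29.3% and 25.9% of all miRNAs, with medians of -1.87 and -1.98. miR-199a-3p was at 1352 ± 157 CPM in AG, 408 ± 225 CPM in TI and 393 ± 220 CPM in TIM, and miR-199a-5p at 908 ± 497, 258 ± 221 and 222 ± 114 CPM. The mature miR-199a-3p and miR-199b-3p are alike in sequence, and how reads matching both were counted is not given in the sources used here. miR-199b-3p was at 682, 209 and 202 CPM in AG, TI and TIM. Its log2 difference in TI was -1.86, beside -1.89 for miR-199a-3p. These strands moved together and may share reads, so the counts out of 6 may hold fewer than 6 separate measurements. Whether they do was not tested. Both strands of miR-126a, the endothelial miRNA of the Egfl7 gene, were lower in both tumor groups. miR-126a-3p was at 39808 ± 3998 CPM in AG, 3574 ± 1780 CPM in TI (log2 difference -3.63, limma adjusted p = 3.3e-06) and 4897 ± 2414 CPM in TIM (log2 difference -3.18, limma adjusted p = 1.3e-05). miR-126a-5p was at 1569 ± 118, 166 ± 75.5 and 217 ± 98.2 CPM in the same order.

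Of 6 leukocyte miRNAs, 3 were lower in TI and 4 in TIM, beside 29.3% and 25.9% of all, with medians of -1.21 and -1.44. On totals computed without miR-148a-3p they were 1 and 2 of 6, beside 20.7% and 16.0% of all. miR-142a-5p was among those that fell in both (log2 differences -1.72 and -1.88), while miR-146a-5p, at -0.16 and -1.28, was not called. Of 4 erythroid miRNAs 0 were called against AG by limma (medians -0.33 and -1.19), 0 at an unadjusted p under 0.05, and likewise 0 by edgeR and DESeq2. miR-451a was at 1036 ± 639 CPM in AG, 1249 ± 1097 CPM in TI and 718 ± 747 CPM in TIM, and miR-486a-5p at 342 ± 176, 339 ± 242 and 208 ± 186 CPM. Of 6 neuronal and neuroendocrine miRNAs 3 were higher in TI and 4 in TIM, beside 26.4% and 25.5% of all tested miRNAs that were higher, with medians of 2.27 and 2.67. The neuroendocrine miR-7a-5p was abundant in all 3 groups (60999 ± 22958 CPM in AG, 75923 ± 71105 CPM in TI and 88688 ± 56757 CPM in TIM) and was not called. miR-375-3p, also of neuroendocrine cells, was at 22018 ± 11525 CPM in AG, 9442 ± 12918 CPM in TI and 8191 ± 7371 CPM in TIM (log2 differences -1.75 and -2.27, limma adjusted p = 0.20 and 0.094) and was not called either. miR-9-5p, a miRNA of neural progenitors and neurons, rose from 490 ± 114 CPM in AG to 7334 ± 3148 CPM in TI and 9462 ± 4520 CPM in TIM. Of 5 epithelial miRNAs, limma called 0 in both comparisons with AG (medians 0.94 and -0.38, 0 at an unadjusted p under 0.05), edgeR 0, and DESeq2 2 in TI and 0 in TIM. miR-200a-3p was at 63.7 ± 73.1 CPM in AG, 180 ± 285 CPM in TI and 26.2 ± 47.3 CPM in TIM, and miR-200b-3p at 88.6 ± 112, 146 ± 209 and 33.6 ± 55.6 CPM. Without TI library 5 limma called 1 of them, miR-205-5p, as higher in TI. Between TIM and TI limma and edgeR called 0 miRNAs of any of these lists, while at an unadjusted p under 0.05 limma had 1 leukocyte, 1 neuronal and 3 epithelial miRNAs, and DESeq2 called 1 muscle, 1 leukocyte, 1 neuronal and 3 epithelial miRNAs. On CPM without the TMM factor limma called 2 endothelial and 1 neuronal miRNA between them.

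Summed levels of the miR-126a and stromal lists were below AG in every tumor, and their part in the result was not tested. Not all lists moved this way. Erythroid sums had medians of 1294 CPM in AG, 1592 CPM in TI and 547 CPM in TIM. In the same order the medians were 97776, 67563 and 94432 CPM for neuronal sums and 53.4, 164 and 18.2 CPM for epithelial sums. Sums of the 4 members were 121588 to 209465 CPM in AG, 15823 to 171457 CPM in TI and 16045 to 101185 CPM in TIM. Those of miR-126a were 38529 to 46092 CPM in AG, 1704 to 6736 CPM in TI and 2428 to 8943 CPM in TIM, so that no tumor came near AG. Those of the stromal list were 2720 to 4088 CPM, 487 to 2041 CPM and 303 to 1675 CPM. TI library 5, with the highest cluster level of all tumors, also had the highest miR-126a sum of TI (6736 CPM), but its stromal sum of 720 CPM was the median of TI. No strand of the endothelial or stromal lists was at 0 in all libraries of a group.

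**Figure D4:**
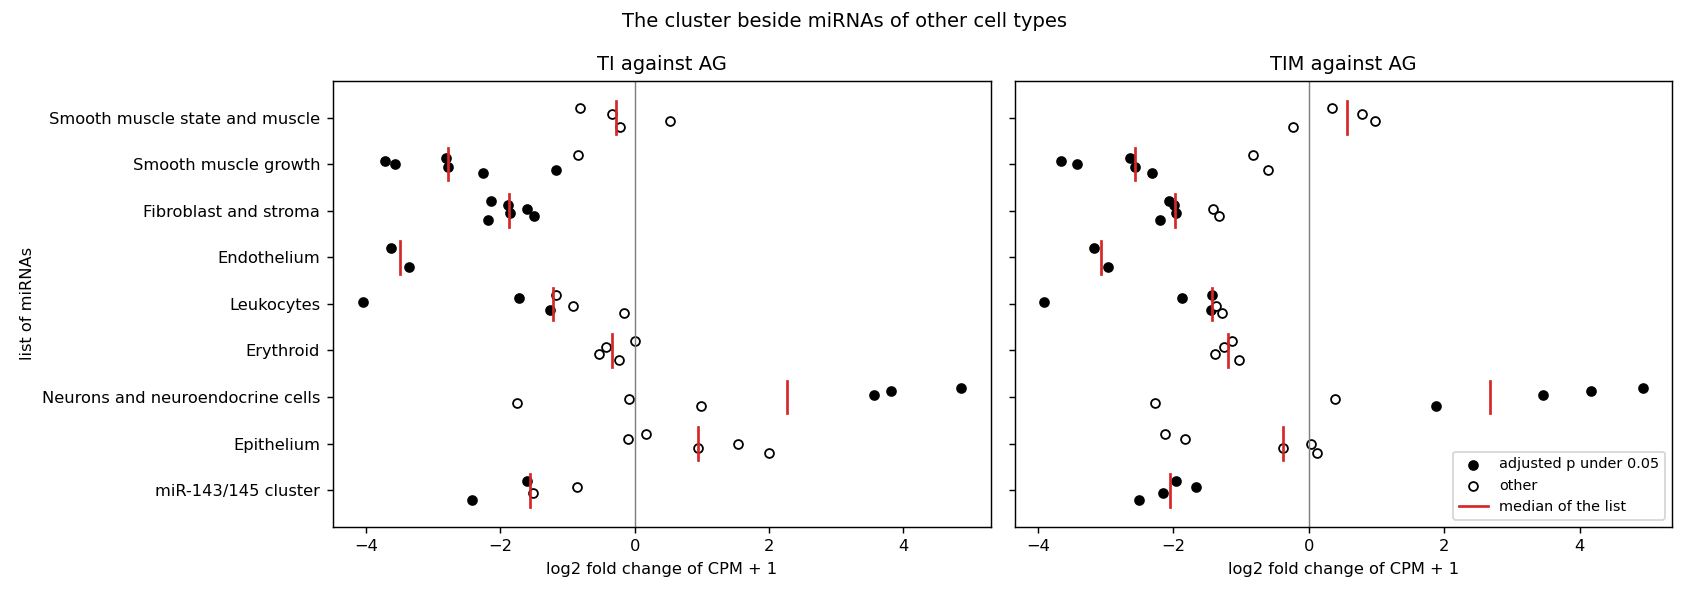
Log2 difference of CPM + 1 against AG (limma) for each tested miRNA of 8 lists and for the 4 members of the cluster, in TI (left) and TIM (right); filled points passed the adjusted p of 0.05 and red lines are list medians. The cluster sits near the stromal list, to the right of miR-126a and to the left of the muscle, erythroid and epithelial lists.

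Of the 400 miRNAs that averaged 10 CPM or more over the libraries, those most like miR-143-3p over all 18 libraries were miR-22-3p (r = 0.84), miR-191-5p (0.82), miR-22-5p (0.82), miR-339-3p (0.81) and miR-27a-5p (0.81). On deviations from the group means they were miR-126a-3p (0.85), miR-27a-5p (0.84), miR-543-3p (0.83), miR-126a-5p (0.82) and miR-22-3p (0.80). Among these 5, leaving out TI library 5 put miR-27a-5p (0.85) before miR-126a-3p (0.82). For miR-145a-5p the nearest over all libraries were miR-29c-5p (0.83), miR-125a-5p (0.82), miR-191-5p (0.81), miR-29a-3p (0.79) and miR-425-5p (0.78). On deviations they were miR-365-3p (0.83), miR-191-5p (0.83), miR-146b-5p (0.78), miR-27a-5p (0.78) and miR-329-5p (0.78). These coefficients are across libraries that share their scaling, are given as descriptions, and are lower than those among the members themselves with 1 exception. On deviations miR-145a-5p correlated at 0.91 with miR-145a-3p and at 0.85 with miR-143-3p, but at 0.83 with miR-143-5p, slightly below miR-365-3p and miR-191-5p.

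Mature sequences of 3 of these miRNAs are shown, since they were among those most like miR-143-3p within or across the groups, with the seed (bases 2 to 8) in capitals. They are RefSeq sequences on GRCm38.p6, of Mir126a (chr2:26591402-26591423, plus strand), Mir22 (chr11:75463772-75463793, plus strand) and Mir27a (chr8:84208685-84208706, plus strand).
miR-126a-3p: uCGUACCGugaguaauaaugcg
miR-22-3p: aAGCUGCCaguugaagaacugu
miR-27a-5p: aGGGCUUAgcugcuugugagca
The 3 seeds differ from each other. All 3 miRNAs were lower in both tumor groups on average, miR-22-3p at 9388, 1040 and 1244 CPM and miR-27a-5p at 169, 21.8 and 31.5 CPM in AG, TI and TIM. Likeness over all 18 libraries includes the group differences, so a lower level in tumors was partly set by that choice. miR-543-3p, also among the nearest on deviations from the group means, went the other way, at 335, 1541 and 1568 CPM in AG, TI and TIM.

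**Figure D5:**
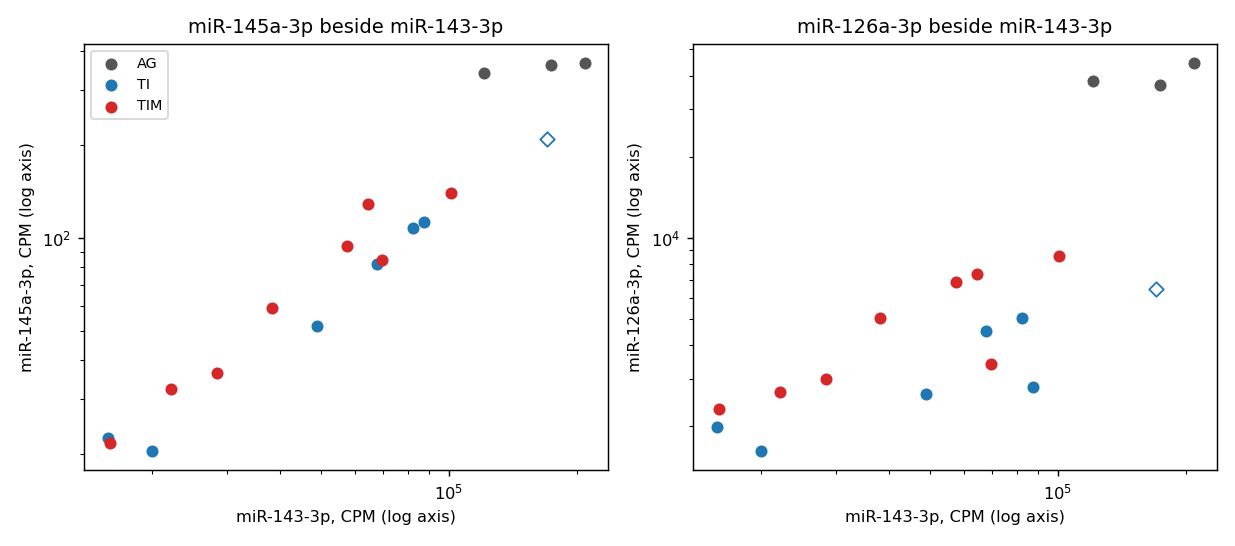
CPM of miR-145a-3p (left) and miR-126a-3p (right) against CPM of miR-143-3p in all 18 libraries (log axes), coloured by group, with TI library 5 as an open diamond. miR-145a-3p follows miR-143-3p across tumors, and miR-126a-3p also follows it within groups (r = 0.85 on deviations from the group means). For both miRNAs the AG libraries lie above TI library 5 at a like level of miR-143-3p. For miR-126a-3p they lie far above all tumors.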

How the data were processed

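Small RNA was sequenced from frozen bulk tissue (3 AG, 7 TI and 8 TIM libraries). Per the labels and the submitters' processing notes, the authors trimmed reads with cutadapt 2.8, aligned them to mm10 with Bowtie2 2.3.5.1, assigned them to mature miRNAs with featureCounts 2.0.0 and scaled them with edgeR 3.40. What they deposited is a signal in CPM, relative to library totals multiplied by TMM factors. In addition, 9 deposited columns with the log2 fold changes, p-values and FDR of the authors' own comparisons were not used. Treatment of reads with several matches is not given in the sources used here. All values were whole multiples of 1 read (tolerance 0.001 reads), and 3 reads correspond to 0.101 to 0.272 CPM. No pair of libraries was identical.

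The main test was limma 3.58.1 in R 4.3.3 (trend, Benjamini-Hochberg, threshold 0.05) on log2(CPM + 1) of all 18 libraries in one model, restricted to the 726 of 1966 miRNAs that reached 1 CPM in 3 or more libraries. A fold change on this scale understates changes of low miRNAs. Group sizes are tumors or glands, so p-values measure the spread between these samples. edgeR 4.0.16 and DESeq2 1.42.0 on recovered reads, other scalings, pseudocounts (0.1 and 5), filters and each library left out were alternatives. Totals that left out miRNAs were used without TMM factors. Within-library ratios were compared by an exact permutation test written in Python 3.11.15, adjusted over 9 comparisons. The tested ratios were of CPM + 1, so that for low arms they depend on the pseudocount. With pseudocounts of 0.1 and 5 the log2 difference of the miR-143 arm ratio between TIM and AG was -0.24 and -0.48. Code was tested on simulated data. miRNAs named beside the members were the 2 most abundant of each list, the 5 most alike to each guide arm by Pearson's r, and those that a result turned on, among them miR-9-5p, miR-205-5p and the miRNAs describing TI library 5, which were chosen after their values were seen. Members and lists were chosen with earlier results of these data known.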

Additional observations from a re-analysis of the deposited data

Results flagged for a closer look

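miR-145a-5p in TIM was flagged because its highest library, library 2 at 312 CPM, lay far from the other 7, which reached 117 CPM at most. Its gap to the next library was 0.68 of the range of the group (Dixon ratio). miR-145a-3p of the same library, at 129 CPM, was the second highest of its group, and miR-143-3p, at 64441 CPM, the third highest. Without this library the log2 difference of miR-145a-5p between TIM and AG was -2.41 (limma adjusted p = 0.0058), against -2.15 with it.

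The ratio of miR-143-3p to miR-145a-5p in TIM was flagged because library 5, at 1192, lay far above the other 7, which reached 649 at most (Dixon ratio 0.55). In this library miR-143-3p was the highest of TIM (100922 CPM) while miR-145a-5p, at 84.6 CPM, was close to the group median, and the ratio of miR-145a-5p to miR-145a-3p was the lowest of all 18 libraries (0.609). The 28 such comparisons took the lowest and the highest library of each group in turn, and 2 were flagged. Chance flags about 5% of groups, which are fewer than the comparisons.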

How the results depend on the processing

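The direction against AG was the same under every alternative run for all 4 members in both tumor groups. miR-145a-3p also kept its call in all of them, whereas in TI the calls of the other 3 members changed with the setting. The cause was not tested.

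miR-143-3p in TI missed the threshold on totals without miR-148a-3p (-1.08, adjusted p = 0.071), on totals without both this miRNA and miR-143-3p (-1.21, adjusted p = 0.060), in edgeR (-1.31, adjusted p = 0.058) and in DESeq2 (-1.27, adjusted p = 0.053). With no filter (adjusted p = 0.073) or with only these 2 groups fitted in limma (adjusted p = 0.055) it missed it at -1.61, since other miRNAs or fewer libraries then set the spread and the adjustment. Under each of these 6 settings 1 of 4 members was called lower in TI, where 16.6% (no filter) to 29.2% (only 2 groups) of all miRNAs were. miR-145a-5p in TI passed on CPM without the TMM factor (-1.72, adjusted p = 0.045) and without TI library 5 in edgeR (-1.49, adjusted p = 0.046) and DESeq2 (-1.52, adjusted p = 0.029). miR-143-5p passed in DESeq2 without TI library 5 (-1.03, adjusted p = 0.043), where 4 of 4 members and 32.4% of all miRNAs were called lower. Settings without TI library 5, other than its removal in limma, and the totals without both miRNAs were chosen after seeing the data. The limma removal was part of leaving out each library in turn, but library 5 was singled out after its values were seen. It was the highest TI library for all 4 members, so that leaving it out enlarges each TI difference from AG.

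Leaving out 1 library at a time, the TI difference ranged from -1.89 to -1.31 for miR-143-3p (called in 4 of 10 fits) and from -1.82 to -1.19 for miR-145a-5p (called in 1 of 10), with 1 to 3 members called. In TIM the range was -2.17 to -1.75 for miR-143-3p, -1.86 to -1.48 for miR-143-5p and -2.41 to -1.91 for miR-145a-5p, each called in 9 of 11 fits, with 1 to 4 members called. The calls were lost without AG library 2 for all 3, without AG library 3 for both arms of miR-143 (adjusted p = 0.072 and 0.081) and without AG library 1 for miR-145a-5p (adjusted p = 0.069). The log2 ratio of miR-143-3p to miR-145a-5p ranged from -0.43 to 0.23 for TI and from -0.14 to 0.52 for TIM, and that of the miR-145a arms between TIM and TI from -0.68 to -0.40.

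Between TIM and TI, CPM without the TMM factor turned miR-143-3p to 0.21 and miR-145a-3p to 0.47. miR-145a-3p was also turned without TI library 5, to 0.14 in edgeR, 0.078 in DESeq2 and 0.16 on totals without miR-148a-3p, and over the fits that left out 1 library it ranged from -0.35 to 0.20. DESeq2 called 1 member, miR-143-5p (-1.12). Of all 726 miRNAs limma called 38 between TIM and TI, against 155 without the TMM factor, 123 in DESeq2, 3 in edgeR, 21 with a pseudocount of 5, 17 of those reaching 10 CPM and 23 with 2 groups. It was 71 and 136 in edgeR and DESeq2 without TI library 5, and 24 to 72 with 1 library left out. Against AG, 373 were called in TIM, and 242 to 381 with 1 library left out.

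No paired analysis of tumors and glands was possible, because the glands came from mice labelled CRE - and not from tumor mice. The paper counts more tumors than animals for the IGF2BP1/MYCN mice. Because columns name a group and no mouse, tumors that share a mouse could not be identified, and each tumor was treated as a separate sample. Depth did not limit the members, whose lowest value rested on 132 reads, whereas miR-145b stayed at 12 reads or fewer.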
